A study of Homo sapiens with 4 samples.

Results

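The sites described here are the strong SNAIL1 sites that both libraries of induced cells have in common. A strong site is a peak of the first induced library (induced 1) with a fold enrichment of at least 5 that overlaps, by at least 1 bp, a peak of the second (induced 2) with a fold of at least 5. There are 342 such sites among 823 peaks of induced 1 and 1338 of induced 2, and among 2177 peaks in all 4 lists of the study. Fold enrichment is the number of ChIP reads at the summit, the highest point of a peak, over the local background, each raised by 1. In induced 1 both had been scaled down before 1 was added. Its folds therefore differ slightly from those that its unscaled reads and backgrounds, printed below, would give. The sites were chosen by their listed fold in both induced libraries, so everything below that comes from these 2 lists is a description and carries no test.

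SNAIL1 is a zinc-finger transcription factor that binds E-box elements in DNA and recruits histone deacetylases and other corepressors. It is best known for switching off the E-cadherin gene and other epithelial genes during epithelial-mesenchymal transition (EMT), in which cells give up their contacts and become motile. In colorectal tumours it is associated with invasive growth. Chromatin immunoprecipitation followed by sequencing (ChIP-seq) finds the DNA such a factor occupies, as a narrow pile of reads centred near the bound element.

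The cells were LS174T, an established human colorectal adenocarcinoma line, carrying a doxycycline-inducible murine SNAIL1 with a hemagglutinin (HA) tag. For the 2 induced libraries SNAIL1-HA was switched on by 6 h of doxycycline at 0.1 mg/ml, and for the 2 uninduced libraries the same engineered cells stayed without the drug. All 4 libraries used an anti-HA antibody, which recognises the tag of the introduced protein and not the cells' own SNAIL1. The sources used here do not say whether the engineered line is 1 clone, or whether the libraries of a condition came from separate cultures. The lists hold no read totals, so depth is unknown from them directly. Reads at the summits, recovered from the listed fold and p of each peak, had a median of 51 in induced 1 and 35 in induced 2 over all peaks.

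A fold of at least 5 was reached by 486 peaks of induced 1 (59.1% of its list) and 646 of induced 2 (48.3%). The strong sites are 70.4% of the former and 52.9% of the latter. Of the remaining strong peaks of induced 1, 98 overlapped a weaker peak of induced 2 and 46 overlapped none. Of those of induced 2, 113 overlapped a weaker peak of induced 1 and 191 overlapped none. Every strong site paired 1 peak of each list, and none met several. Another 319 peaks of induced 1 were shared but fell under a fold of 5 in at least 1 list, 108 of them in both. These serve below as the nearest comparison.

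**Figure D1:**
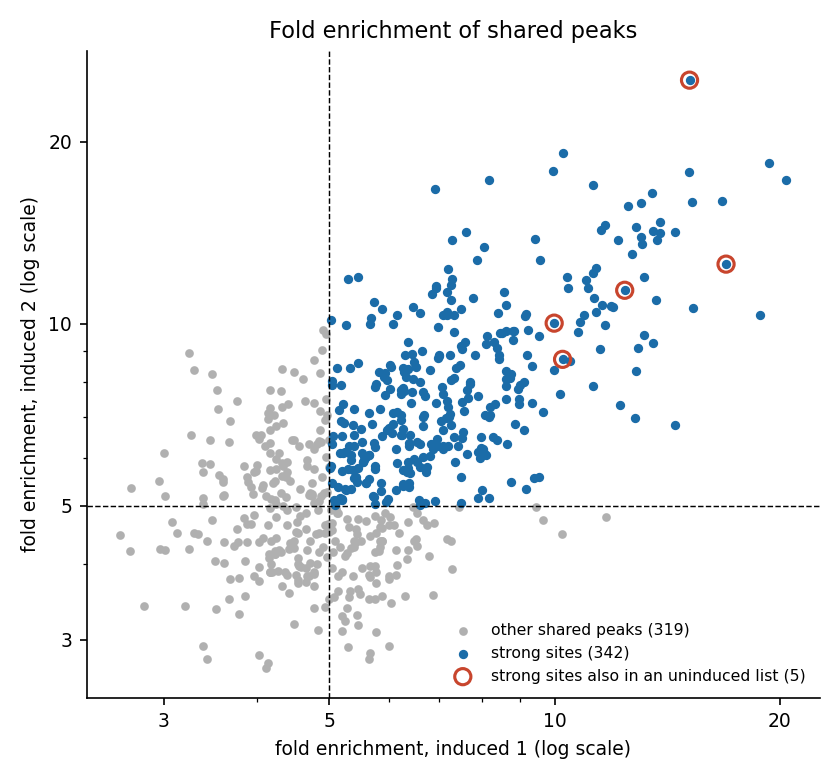
Fold enrichment of every shared peak in induced 1 (x axis) and induced 2 (y axis), both on log scales, with dashed lines at the minimum of 5. The 342 strong sites (blue) fill the upper right, the 319 other shared peaks (grey) lie below a line, and the 5 circled sites, also listed in uninduced cells, have folds of 8.73 or more in both libraries.

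Strong sites had a median fold of 7.07 in induced 1 and 7.65 in induced 2. The range was 5.01 to 20.4 in induced 1 and 5.01 to 25.3 in induced 2. Most were moderate, since only 42 sites (12.3%, exact 95% interval 8.996 to 16.2) reached a fold of 10 in both libraries. At the lower edge, the site at chr11:2231574-2232015 had folds of 5.01 and 5.78, and the site at chr1:94050640-94050929 had 5.09 and 5.01. The site at chr4:4543643-4544161 also lay at the edge through induced 1 alone, with 5.02 and 10.1. Just outside were the shared peaks at chr11:1855413-1855759 (4.99 and 5.78), chr22:46503130-46503555 (4.99 and 6.41) and chr13:27546224-27546622 (7.45 and 4.98). The edge therefore separates peaks with near-identical values.

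The summit of a strong site was covered by a median of 68 reads in induced 1, with a range of 38 to 196, and by 57 in induced 2, with a range of 27 to 155. The site with the most reads, at chr17:7165549-7166155, had 196 reads in induced 1 and 155 in induced 2. Next was the site at chr20:400172-400861, with 173 reads (exact Poisson 95% interval 148 to 201) and 147 (124 to 173). The site at chr1:89990405-89991029 had 170 (145 to 198) and 126 (105 to 150). Such intervals cover counting error only. These 3 sites were high in both libraries. Over all strong sites, the summed reads of induced 1 were 1.21 times those of induced 2, and 297 of the 342 sites (86.8%) had more reads in induced 1. This was not particular to strong sites. At the other shared peaks the ratio was 1.26, and 277 of 319 (86.8%) had more reads in induced 1.

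The order of the sites by reads was more alike between the libraries than their order by fold. Across the 342 sites, reads in induced 1 and induced 2 had a Spearman's rho of 0.839, folds 0.571 and local backgrounds 0.307. These are descriptions across sites that share 2 libraries and their controls, and the minimum of 5 shortens the range of the folds. The background, on the scale of each library's ChIP reads, had a median of 8.05 in induced 1, with a range of 6.00 to 19.6, and of 6.33 in induced 2, with a range of 4.15 to 14.5. The fold in induced 2 was a median of 1.06 times that in induced 1, and it lay within 1.5 times of it at 294 sites.

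**Figure D2:**
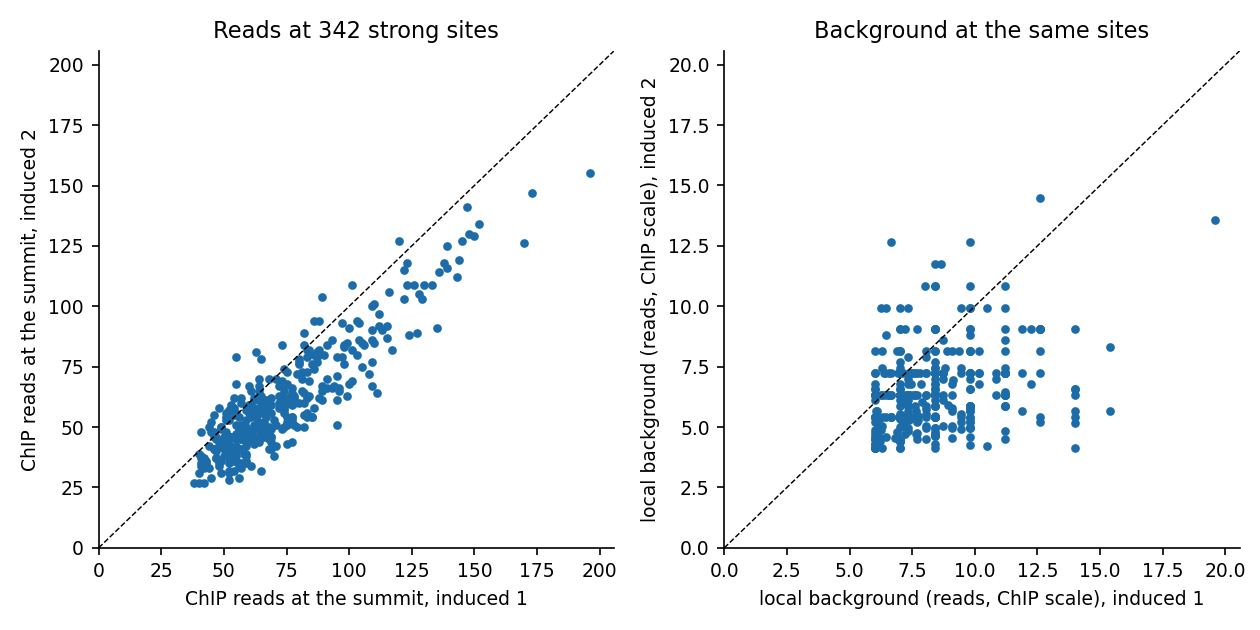
ChIP reads at the summit (left) and local background in reads (right) of the 342 strong sites in induced 1 (x axis) and induced 2 (y axis). The dashed line marks equal values. Reads form a narrow band below the line (rho 0.839), while backgrounds are scattered (rho 0.307).

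Where the folds of a site parted, the backgrounds parted more than the reads. At the 36 sites with a fold over 1.5 times higher in induced 2, the reads of induced 1 were a median of 1.04 times those of induced 2, against 1.22 at all strong sites. The backgrounds were a median of 1.82 times those of induced 2, against 1.30. At the 12 sites with a fold over 1.5 times higher in induced 1, the median ratio of reads was 1.41 and that of backgrounds 0.800. Fold is computed from both quantities, so these ratios only say how the difference divides between them.

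The extreme cases, chosen after their values were seen, show this in single sites. The site at chr16:16326050-16326503 had 105 reads in induced 1 and 85 in induced 2, close to the overall ratio. Its backgrounds were 14.0 and 4.15 reads, the second at the lowest value of the strong sites in induced 2. Its folds were 6.91 and 16.7. No interval was computed for backgrounds. The site at chr1:1207792-1208229 had 80 and 78 reads over backgrounds of 14.0 and 5.65, with folds of 5.29 and 11.9. The opposite case, at chr1:1003932-1004399, had 115 and 92 reads over 6.65 and 12.7, with folds of 14.5 and 6.81.

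Strong sites were narrow. The median width was 393 bp in induced 1 (range 250 to 1020) and 422.5 bp in induced 2 (254 to 1073), and the stretch covered by either peak had a median of 442.5 bp. For scale, the chromatin had been sheared to about 100 to 550 bp per the labels' protocols, and no peak of any list was narrower than 250 bp. In all, the strong sites covered 164338 bp. They made up 41.6% of the peaks of induced 1 but 53.6% of the reads summed over its summits, and 25.6% and 38.2% in induced 2. The other shared peaks had median widths of 312 and 341 bp, and those found in 1 library only had 281 bp in induced 1 and 303 bp in induced 2.

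The listed width grew with the listed fold, and both values come from the same peak call. Sites whose smaller fold lay between 5 and 6 (117 sites) had median widths of 346 and 377 bp. Those from 6 to 8 (141 sites) had 386 and 423 bp, those from 8 to 10 (42 sites) had 416 and 428.5 bp, and those of 10 or more (42 sites) had 481 and 509.5 bp. Across sites the width of a peak had a Spearman's rho of 0.501 with its reads in induced 1 and 0.494 in induced 2. Widths in the 2 libraries had a rho of 0.725. The peak was wider in induced 2 at 233 of 342 sites (68.1%), by a median of 1.06 times over all sites. It was over 1.5 times wider at 10 sites, against 4 that were over 1.5 times wider in induced 1. Of the other shared peaks, 203 of 319 (63.6%) were wider in induced 2.

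The widest sites were not the strongest. At chr20:62446527-62447642 the peaks were 1020 and 1073 bp wide with folds of 6.31 and 8.87. At chr9:129676810-129677847 they were 656 and 1038 bp wide, with folds of 8.33 and 7.37, and at chr14:104691495-104692525 they were 999 and 756 bp wide, with 5.87 and 10.6. Only 14 sites (4.09%) spanned more than 800 bp. The narrowest, at chr14:106804943-106805224, chr1:94050640-94050929 and chr10:72263611-72263906, spanned 282, 290 and 296 bp, with folds of 5.01 to 5.81 in either library.

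The 2 libraries placed the summits of most strong sites within 25 bp of each other. The distance between the summits had a median of 19 bp, was at most 25 bp at 204 sites (59.6%, 54.2 to 64.9) and at most 100 bp at 329 (96.2%, 93.6 to 98.0). At 3 sites the summits coincided, namely chr1:27286661-27287103, chr17:46703185-46703524 and chr19:14544264-14544948, with folds of 8.06 and 7.07, 6.88 and 6.20, and 5.35 and 5.96. There was no common shift, since the summit of induced 2 lay at the higher coordinate at 158 sites and at the lower at 181, a median of -2 bp. The other shared peaks had a median distance of 25 bp, with 163 of 319 (51.1%, 45.5 to 56.7) within 25 bp.

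Peak borders varied more than summits. The start of a peak differed between the libraries by a median of 29 bp and the end by 26.5 bp. The overlap of the 2 peaks covered a median of 85.4% of the stretch spanned by both, and at 175 sites 1 peak lay wholly inside the other. Both summits fell within the overlap at 339 of the 342 sites. Summits lay near the middle of the peak, a median of 20 bp from the midpoint in induced 1 and 17.25 bp in induced 2.

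**Figure D3:**
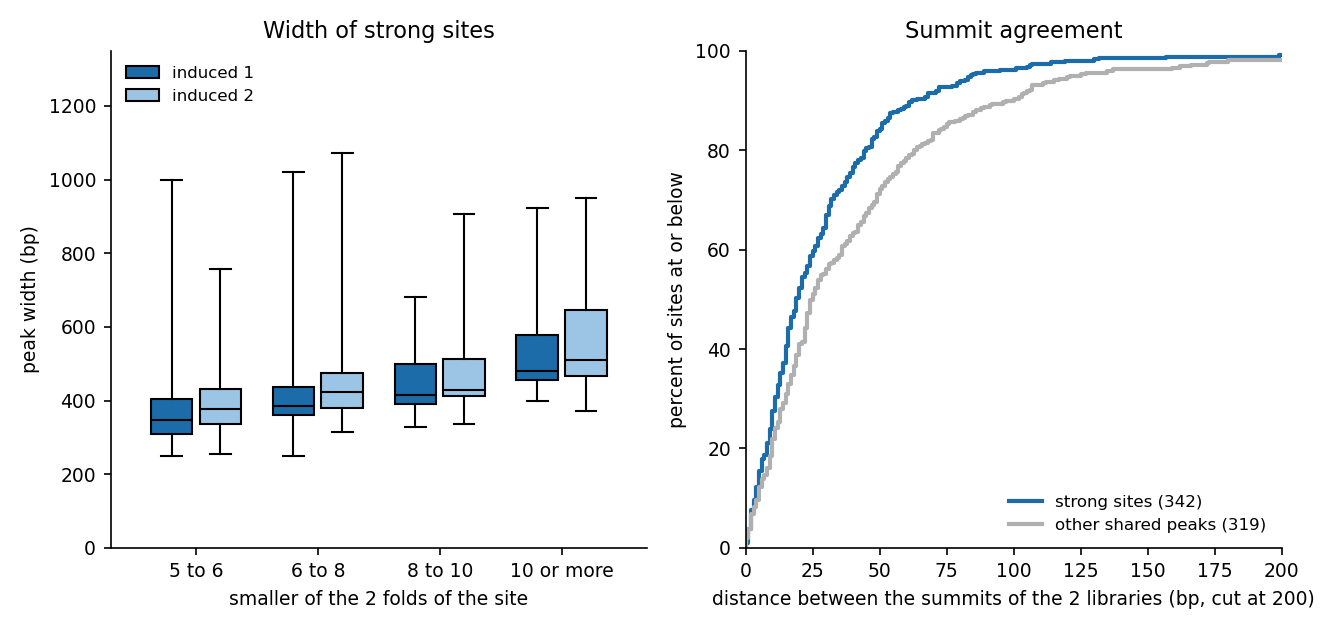
Left, peak width in bp of the strong sites by the smaller of their 2 folds, in induced 1 (dark) and induced 2 (light). Boxes span the quartiles with the median as a line, and whiskers reach the lowest and highest value; medians rise from 346 and 377 bp to 481 and 509.5 bp. Right, percent of sites with summits at most a given distance apart, in bp, for strong sites (blue, median 19 bp) and other shared peaks (grey, median 25 bp).

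Summit agreement was lowest in the weakest class. The median distance was 28 bp for sites with a smaller fold of 5 to 6, where 54 of 117 (46.2%) lay within 25 bp. It was 16 bp from 6 to 8, 19.5 bp from 8 to 10 and 15.5 bp at 10 or more, where 30 of 42 (71.4%) lay within 25 bp. Summits more than 100 bp apart occurred at 13 sites, and 8 of these had a smaller fold under 6. These 13 sites were also broader, with a median span of 637 bp against 441 bp for the others.

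The 3 largest distances occurred at broad or displaced peaks. At chr9:140317649-140318399 the summit of induced 2 lay 366 bp below that of induced 1, with 50 and 46 reads at the 2 summits. At chr6:157822472-157823399 it lay 364 bp above, with 41 and 38 reads. At chr17:80922377-80923109 it lay 225 bp above, with 38 and 27 reads, and the peaks overlapped by 248 bp. All 3 had folds of 5.16 to 6.04. The strongest of the 13, chr17:81008495-81009387, was chosen after its values were seen. Its folds were 13.7 and 10.96 (123 and 109 reads) and its summits lay 119 bp apart in peaks of 851 and 864 bp.

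Most strong sites had no other strong site within 100 kb. No comparison with random placement was made. Consecutive sites on a chromosome were a median of 2.50 Mb apart, with quartiles of 505 kb and 9.71 Mb and a largest gap of 91.5 Mb. The nearest other strong site lay within 1 Mb for 153 sites (44.7%), within 100 kb for 43 (12.6%) and within 20 kb for 12 (3.51%, 1.83 to 6.05). The neighbourhood is fuller when weaker peaks count, as 56 sites (16.4%) had another peak of either induced list within 20 kb and 128 (37.4%) within 100 kb. The 319 other shared peaks lay closer to each other, with a median gap of 2.07 Mb between consecutive peaks. Their nearest neighbour was a median of 929 kb away, against 1469 kb for the strong sites, and 16 of them (5.02%, 2.89 to 8.02) had one within 20 kb. Among the 16 are the induced 1 peaks at chr1:54021487-54021867 and chr1:54021935-54022188, which overlap the same peak of induced 2.

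The 12 close sites formed 6 pairs and no longer run. The closest pair, at chr9:71735472-71737215, had summits 1316 bp apart in induced 1 and 1299 bp apart in induced 2. Its first site had 52 and 35 reads and its second 71 and 51. The pair at chr7:2563765-2566250 had summits 2018 and 2031 bp apart, with 97 and 93 reads at the first site and 62 and 61 at the second. The pair at chr8:143420902-143424577 had summits 3027 and 3091 bp apart, with 60 and 59 reads and 89 and 104. In each of these 3 pairs the site with more reads was the same in both libraries, and no weaker shared peak lay within 20 kb. The other pairs lay at chr5:1239785-1247280, chr1:1058743-1072512 and chr1:43736139-43751672, with summits 7129, 12802 and 14900 bp apart.

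**Figure D4:**
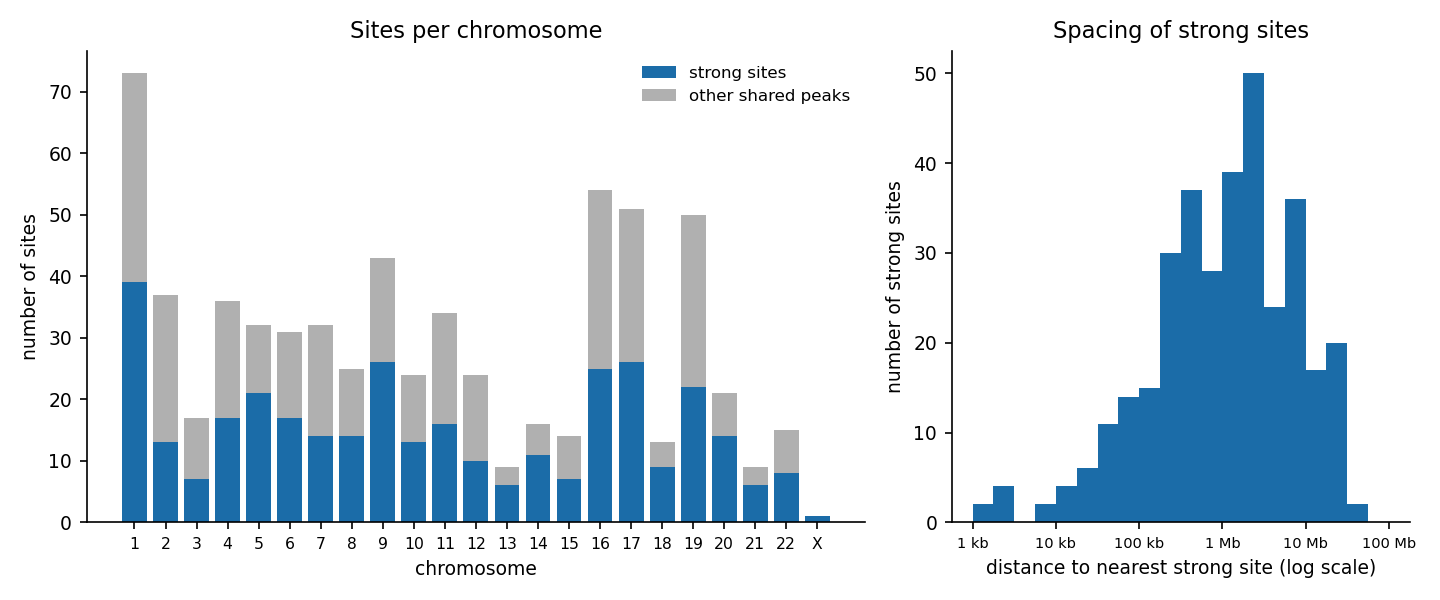
Left, number of strong sites (blue) and other shared peaks (grey, stacked) on each chromosome. Right, distance from each strong site to the nearest other strong site on a log scale; 43 sites have a neighbour within 100 kb and 12 within 20 kb, and the single site of chromosome X is left out.

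Strong sites occurred on all autosomes and on chromosome X. Chromosome 1 held 39, chromosomes 9 and 17 held 26 each, chromosome 16 held 25, chromosome 19 held 22 and chromosome 5 held 21. Per 10 Mb, measured up to the furthest listed peak, chromosome 19 had 3.92 sites, chromosome 17 had 3.21 and chromosome 16 had 2.77, against 1.13 over all chromosomes with a strong site. Chromosome 3 had 0.355 and chromosome X 0.0655. The only site on X was strong, with folds of 13.02 and 13.9.

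The share of shared peaks that were strong is given by chromosome as a description, since the rule itself set which peaks were strong. Of all shared peaks, 51.7% (47.9 to 55.6) were strong, and no chromosome's exact 95% interval of this share left out that value. The share was lowest on chromosome 2, with 13 of 37 (35.1%, 20.2 to 52.5). It was 69.2% on chromosome 18 (9 of 13, 38.6 to 90.9) and 65.6% on chromosome 5 (21 of 32, 46.8 to 81.4). With so few peaks per chromosome the intervals are wide, and differences between chromosomes were not tested.

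The low-coordinate ends of some chromosomes held many strong sites and many weaker shared peaks. The high-coordinate ends were not counted in the same way. In the first 5 Mb of the chromosomes lay 53 of the 342 sites (15.5%, 11.8 to 19.8), and 52 of the 319 other shared peaks (16.3%, 12.4 to 20.8). These first 5 Mb are 3.81% of the length up to the furthest peak of each chromosome. That length includes the first 5 Mb of chromosomes 3, 9, 13, 14, 15, 18, 21, 22 and X, where no peak of any kind was listed. Chromosomes 11 and 19 supplied 9 sites each, chromosomes 1 and 4 supplied 7 each and chromosome 5 supplied 5, and 13 of the 23 chromosomes had at least 1. By the smaller fold of a site, the share was 13.7% from 5 to 6 (16 of 117), 17.7% from 6 to 8 (25 of 141), and 14.3% both from 8 to 10 and at 10 or more (6 of 42 each).

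In windows of 1 Mb, 230 of the 273 windows with a strong site held just 1, and 43 held more. The fullest was on chromosome 1 from 1000001 to 2000000, with 6 strong sites and 4 other shared peaks. The first 1000000 bp of chromosome 11 held 5 strong sites, and so did the window on chromosome 8 from 143000001 to 144000000, where only 1 further peak was shared. Windows with 4 strong sites lay on chromosomes 5 (from 1000001), 9 (from 139000001), 16 (from 85000001) and 19 (from 1). The windows on chromosomes 8 and 9 lay near the high-coordinate end of the listed peaks, the furthest of which were at 145.75 and 140.5 Mb.

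The choice of sites did not use the lists of uninduced cells. These lists were short, with 5 peaks in uninduced 1 and 11 in uninduced 2, so few strong sites could overlap them whatever their strength. Of the 342 sites, 5 overlapped an uninduced peak (1.46%, 0.476 to 3.38). Seen from the uninduced lists, 3 of the 5 peaks of uninduced 1 (60%, 14.7 to 94.7) and 5 of the 11 of uninduced 2 (45.5%, 16.7 to 76.6) lay at a strong site. The 11 include several peaks with folds of only 1.30 to 1.35 over backgrounds of 360 to 378 reads, none at a strong site. Over all peaks of each induced list, the share overlapping an uninduced peak was 0.608% in induced 1 (5 peaks) and 0.523% in induced 2 (7 peaks). All 5 such peaks of induced 1 were thus strong sites, and none of the 319 other shared peaks overlapped an uninduced peak, which allows a share of up to 0.940% at 3 counts and 1.15% by the exact 95% interval. The 2 further peaks of induced 2 had no partner in induced 1. The count rests on uninduced 2, which listed all 5 sites, whereas uninduced 1 listed 3. With 2 libraries against 2, no exact test between conditions can pass 0.05, and none was made.

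The 5 sites were among the stronger ones, with median folds of 12.4 in induced 1 and 11.4 in induced 2, against 7.01 and 7.61 for the other 337. Folds at least as high as the lowest of theirs (8.73) in both libraries occurred at 61 strong sites, and 56 of these were in neither uninduced list. Why these 5 were listed was not tested. Of the 42 sites with folds of at least 10 in both libraries, 39 were in neither.

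The values that the lists hold for these 5 sites follow. The site at chr1:236332253-236332771 had 147 and 141 reads in the induced libraries, with folds of 15.1 and 25.3, and 54 and 69 reads in the uninduced ones, with folds of 8.77 and 8.37. Its 25.3 was the highest fold of any strong site in induced 2. The site at chr2:236279577-236280159 had 135 and 91 reads in induced cells (16.9-fold and 12.6-fold) and 37 and 62 in uninduced cells (4.73-fold and 8.08-fold). Both sites had higher folds in each induced list than in either uninduced list.

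The site at chr6:169313350-169313917 was the only site of the 5 at which the folds of the 2 conditions overlapped. It had 99 and 63 reads in induced cells, with folds of 10.2 and 8.73, and 56 and 76 in uninduced cells, with folds of 9.06 and 5.28. Folds of separately normalized lists are set side by side here and were not tested.

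The remaining sites were listed in uninduced 2 only. The site at chr7:139709037-139709987 had 108 and 72 reads in induced cells (12.4-fold and 11.4-fold) and 35 in uninduced 2 (5.03-fold). The site at chr11:3164044-3164672 had 87 and 77 reads (9.98-fold and 10.02-fold) against 41 (4.51-fold). Uninduced 1 listed no peak at either, which does not show that reads were absent there. The summits of the uninduced peaks lay 4 to 91 bp from those of induced 1 and 3 to 82 bp from those of induced 2 over all 5 sites.

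**Figure D5:**
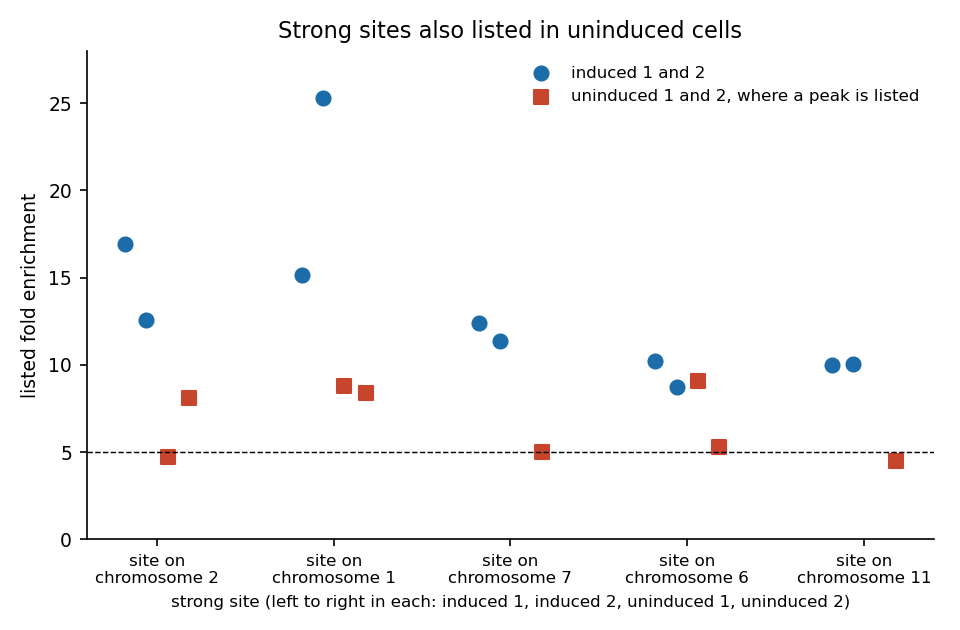
Listed fold enrichment (y axis) of the 5 strong sites that also appear in an uninduced list, for the induced libraries (blue circles) and the uninduced ones (red squares, drawn where a peak is listed); the dashed line marks a fold of 5. On chromosome 6 the uninduced 1 fold of 9.06 exceeds the 8.73 of induced 2, and at the other 4 sites both induced folds lie above every uninduced one.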

How the data were processed

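Anti-HA ChIP-seq of 2 induced and 2 uninduced libraries was read as single reads of 50 bp. Named in the submitters' processing notes are MACS2 (2.1.1.20160309), BWA (0.7.15), Trimmomatic (0.36) and build hg19. The sources used here do not state the peak threshold, the treatment of duplicates or the control of each library. For each library there is its own deposited narrowPeak list, not one over pooled replicates. The authors' columns hold each peak's position, summit, fold enrichment (a ratio), −log10 p, −log10 q and a score of 10 times the −log10 q, rounded down.

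Reads at summits and backgrounds were recovered by solving fold and −log10 p for a whole pileup (within 0.0005 for all peaks of all 4 lists). The pileups of induced 1 had been scaled down by 1.40, and its reads and background are given before that scaling. Peaks were paired by overlap in Python 3.11.15 with scipy 1.17.1. Both steps were checked on simulated data, with the scaling given and not estimated, and with backgrounds below the highest of these lists. Shares have exact Clopper-Pearson 95% intervals. Coordinates are 1-based, and a site's span covers both peaks.

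Groups came from the titles. The sites, rules and lists were chosen with earlier results of these data known. Sites named are those in uninduced lists, the 3 with most reads, widest, narrowest, closest, with summits furthest apart or identical, and nearest the minimum on either side. Outside this rule, 3 sites with the most unequal folds, 1 strong site with distant summits, and the sites of the remaining close pairs and of chromosome X were named after their values were seen. No sequence or annotation of hg19 was used here, so the planned genes, transcription starts and motifs are not reported.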

Additional observations from a re-analysis of the deposited data

How the results depend on the processing

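Which sites count as strong, and so their number, follows the minimum fold: 525 sites at a fold of 4 and 225 at 6, with 39 and 6 of them within 20 kb of another. In the first 5 Mb lay 83 of the 525 sites at a fold of 4, 53 of the 342 at 5 and 37 of the 225 at 6. The number of sites follows from the filter, and the count in the first 5 Mb rose and fell with that number. The cause of the other changes was not tested. At minimums of 4, 5 and 6 the median width in induced 1 was 373, 393 and 413 bp. The median summit distance was 21, 19 and 16 bp. These shifts were under 1 SD over sites, which measures the spread of sites and not of a median. Under both other minimums 5 sites were in an uninduced list. Needing an overlap of 50% of each peak left 341 sites. Strong lines of 1 induced library alone numbered 486 to 646, with median widths of 377 to 383 bp, 39 to 39 lines within 20 kb of another, 72 to 88 in the first 5 Mb, and 5 to 7 in an uninduced list. Leaving out 1 uninduced library gave 3 to 5 sites. With 50 kb in place of 20 kb, 24 sites had a neighbour, and 33 lay in the first 2 Mb. An alternative chosen after seeing the data took the 486 lines of each list with the most reads. It gave 362 sites, of which 278 were strong sites (81.3% of the strong sites and 76.8% of the sites by reads), with 26 within 20 kb of another. What depth each list had is unknown, so a site under the calling threshold may still be bound. The planned results on transcription starts and the CAGGTG motif were not run, since no hg19 annotation or sequence was used. No paired analysis was possible because the results come from no test between groups, and values in all 4 lists, which were normalized separately, exist at only 3 of the 342 sites.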
